A study of Mus musculus with 8 samples.

Results

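Glutathione, thioredoxin and NRF2 antioxidant genes were examined in the injured mouse lung as a set of 55 genes, chosen by gene name in the array annotation. The set holds 20 glutathione transferases, 13 peroxidases including catalase, 3 superoxide dismutases, 6 genes of the thioredoxin system, 5 genes of glutathione supply and recycling, and 8 genes made up of NRF2 (Nfe2l2), its inhibitor Keap1 and further NRF2 targets. All 55 were among the 24442 genes tested, of 36095 gene names on the array, and all read well above background on all 8 arrays.

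The samples were whole-lung total RNA of C57BL/6 mice taken 12 h after lipopolysaccharide (LPS), the outer-membrane component of Gram-negative bacteria that is used to injure the lung. One group was 4 wild-type mice and the other 4 mice with a lung-specific knockout of GGPPS1 (Ggps1), the synthase of the geranylgeranyl lipid that anchors many small GTPases to membranes. Both groups had received LPS, so values compare genotypes under LPS; mice without LPS were not analysed here, and neither the promoter behind the knockout nor the age of the mice is given in the sources used here. Each mouse was measured on its own single-colour Agilent array.

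NRF2 is a transcription factor that KEAP1 holds in the cytoplasm and marks for degradation. Oxidants and electrophiles modify cysteines of KEAP1, NRF2 then collects in the nucleus, and with a small MAF partner it binds antioxidant response elements near genes of glutathione synthesis, thioredoxin recycling, NADPH supply and conjugation. Glutathione peroxidases and peroxiredoxins use the reduced thiols to remove peroxides, and the transferases attach glutathione to reactive compounds. In the lung these systems are known to be active in the airway and alveolar epithelium and to limit damage by the oxidants that recruited neutrophils release.

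The core of the antioxidant response element, TGACNNNGC, was searched on both strands (GCNNNGTCA on the opposite strand) in the RefSeq promoters of assembly GRCm38.p6, which cover 250 bases before to 50 bases after a gene's start. Of the 48 genes of the set with a promoter in that table, 11 (22.9%) held the core, against 3781 of 27025 genes (14.0%) in the whole table. They were G6pdx, Gclm, Gsta3, Gstm5, Mgst1, Nfe2l2, Pgd, Prdx1, Sod1, Srxn1 and Txnrd1. No promoter was taken for Gsta4, Gstt2, Prdx6, Sod3, Gclc, Gsr and Hmox1. Shown here are the matches in all of these except Gsta3 and Pgd, 5′ to 3′ on the strand of the gene. The matched core is in capitals, with 10 bases on each side.
Mgst1: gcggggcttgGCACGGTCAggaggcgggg
Gstm5: caccgcccacTGACCACGCggagggcggg
G6pdx: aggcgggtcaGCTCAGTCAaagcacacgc
Sod1: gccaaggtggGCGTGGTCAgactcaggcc
Gclm: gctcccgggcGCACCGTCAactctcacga
Nfe2l2: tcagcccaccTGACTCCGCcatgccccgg
Srxn1: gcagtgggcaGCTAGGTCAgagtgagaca
Txnrd1: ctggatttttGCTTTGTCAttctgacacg
Prdx1: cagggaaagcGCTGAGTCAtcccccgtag
The windows lie at chr6:138140461-138140489 and chr3:107895802-107895830 (plus strand), chrX:74428919-74428947 (minus strand), chr16:90220696-90220724 and chr3:122245413-122245441 (plus strand). The others are at chr2:75704885-75704913 (minus strand), chr2:152105542-152105570, chr10:82859104-82859132 and chr4:116685456-116685484 (plus strand). The matches of Gstm5 and Nfe2l2 read TGAC first on the strand of the gene, and the other 7 read in the opposite orientation. In Mgst1 and Sod1 the core began 56 bases before the start, in G6pdx 57 bases, in Gstm5 42 bases and in Nfe2l2 240 bases, whereas that of Srxn1 began at base 29 after the start. The match of Prdx1 also contains TGAGTCA, the opposite-strand reading of the AP-1 motif TGACTCA, so these letters fit either motif. The AP-1 motif was in 5 of the 48 promoters of the set, and in 5.95% of all promoters. That of Gstm5 holds TGACTCA outside its core. A match describes letters only, and no binding was measured.

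The 250 bases before the start are given for Gstm5 and Mgst1, the 2 transferases with the core whose knockout values all lay above the wild-type values, with the core again in capitals (chr3:107895604-107895853 and chr6:138140277-138140526, GRCm38.p6, both on the plus strand).
Gstm5: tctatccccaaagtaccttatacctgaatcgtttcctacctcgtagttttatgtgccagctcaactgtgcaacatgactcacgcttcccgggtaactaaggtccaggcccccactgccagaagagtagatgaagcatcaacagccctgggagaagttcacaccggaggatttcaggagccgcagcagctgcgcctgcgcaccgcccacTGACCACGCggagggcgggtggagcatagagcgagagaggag
Mgst1: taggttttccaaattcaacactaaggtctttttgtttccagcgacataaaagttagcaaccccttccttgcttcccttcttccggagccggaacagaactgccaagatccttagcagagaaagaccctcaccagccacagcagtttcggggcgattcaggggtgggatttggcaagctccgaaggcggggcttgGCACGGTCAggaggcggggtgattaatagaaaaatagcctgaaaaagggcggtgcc

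None of the 55 genes passed the test at an adjusted p under 0.05 (limma, Benjamini-Hochberg over all 24442 genes tested), where the background was 15 genes, or 0.0614% (0.0327% higher and 0.0286% lower in the knockout). At an unadjusted p under 0.05, 14 of the 55 (25.5%) were counted, 10 higher and 4 lower in the knockout, against 23.6% of all genes tested (10.2% higher and 13.4% lower). The 4 knockout values lay entirely to one side of the 4 wild-type values in 11 genes (8 above, 3 below, 20% in all), against 15.3% of all genes tested (6.11% above and 9.22% below). The direction was tilted more: 38 of 55 genes (69.1%) had a higher mean in the knockout, against 45.7% of all genes, and the median difference was 0.098 on the log2 scale against -0.027 for all genes. Centring the arrays on their medians instead lowered every difference alike, so that 32 of 55 were higher and the median was 0.042, against -0.083 for all genes. Leaving out 1 lung at a time moved the difference of 36 of the 55 genes by over 1.5 times at least once. The other 19 include all 14 with an unadjusted p under 0.05. A ratio moves easily where the difference is near 0, as for Gpx7 (0.001), and less where it is large against its SE. So this adds no separate support for the 14. Differences are knockout minus wild-type throughout, and levels are log2 signal minus the array's own 75th percentile, so they compare samples for 1 gene and not genes with each other.

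**Figure D1:**
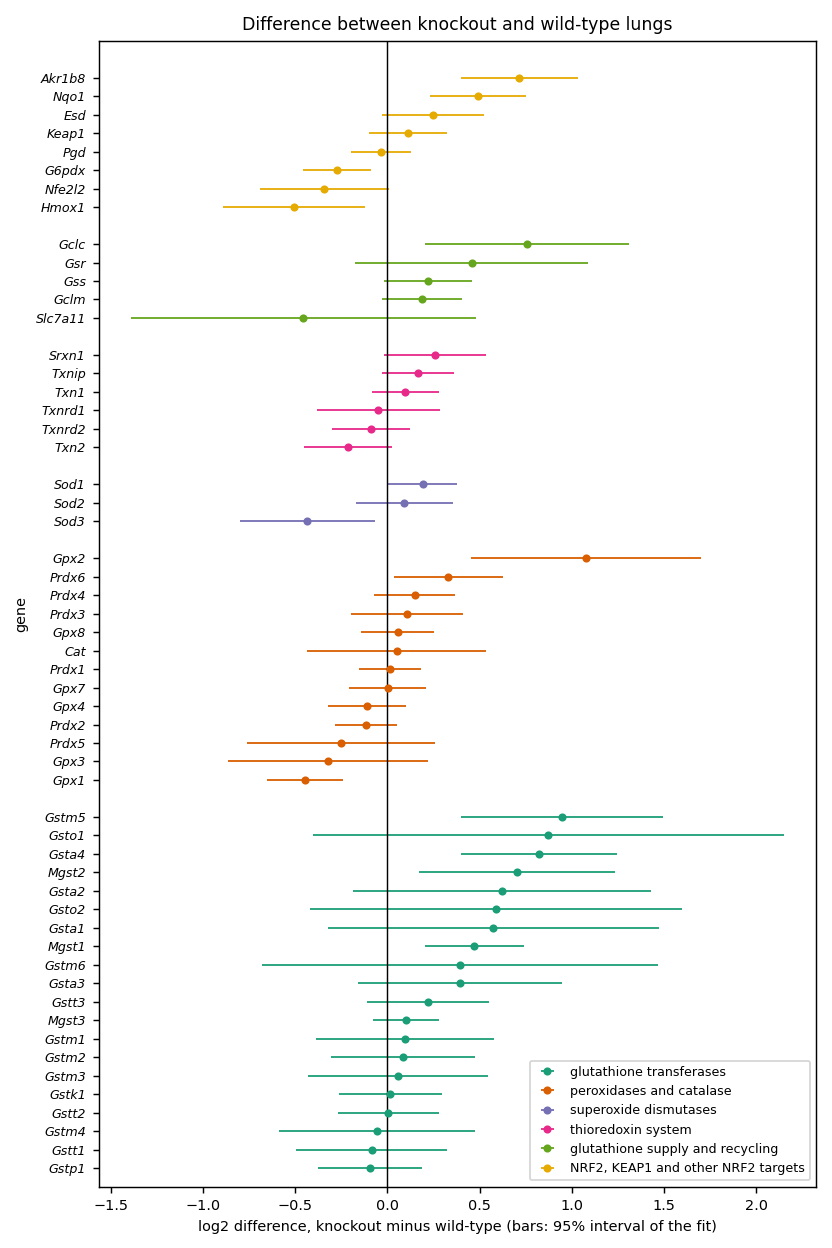
Log2 difference, knockout minus wild-type, for each of the 55 genes (points) with the 95% interval of the limma fit (bars), coloured by group of genes. Most transferases lie to the right of 0, the peroxidases and the thioredoxin system lie around it, and Gpx1, Hmox1, Sod3 and G6pdx have intervals below it.

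Measures of array quality and the levels of cell-type markers differed between the lungs. Their part in the differences of the set was not tested. Wild-type arrays had 63.6% ± 1.8 of their spots well above background and knockout arrays 59.8% ± 1.5 (SD over 4 arrays each; two-sided exact permutation test, p = 0.0571). Feature Extraction had put a surrogate in place of the signal, as too close to background, for 17.4% ± 2.2 of probes on wild-type arrays and 23.2% ± 1.7 on knockout arrays, with no overlap (SD over 4 arrays each; two-sided exact permutation test, p = 0.0286, the smallest this design allows). All 8 arrays lay on 1 slide, wild-type in row 1 and knockout in row 2, so slide row and genotype cannot be told apart. Columns 1 to 4 held replicates 1 to 4 of both groups, so column is not tied to genotype. Ggps1 itself differed by -0.06 ± 0.068 (SE; limma, adjusted p = 0.613), and the deleted part of the gene is not given, so the probe does not check the labels. Alveolar type 2 markers such as the surfactant proteins, which define lung, averaged between 4.86 and 5.55 in the 8 samples and were lower in the knockout in 7 of 10 genes. Alveolar type 1 markers were lower in 10 of 10, with means of 3.75 to 4.38 in the wild-type and 2.79 to 3.94 in the knockout lungs, lowest in knockout replicate 4. Ciliated cell markers were higher in the knockout in 13 of 14 genes and club cell markers in 12 of 13, whereas monocyte and interstitial macrophage markers were lower in 11 of 11. Heart muscle and fat markers were higher in 13 of 13 and 7 of 7 genes and varied widely between single lungs. In bulk tissue, fewer cells of a type and less RNA per cell cannot be told apart.

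Nfe2l2 mRNA, which encodes NRF2, read 4.62, 5.12, 4.65 and 4.94 in the wild-type and 4.39, 4.80, 4.47 and 4.30 in the knockout lungs. Only knockout replicate 2 reached into the wild-type range. The difference was -0.34 ± 0.15 (SE; limma, adjusted p = 0.222). Keap1, the adaptor that presents NRF2 for degradation, read 3.59, 3.45, 3.69 and 3.62 in the wild-type and 3.82, 3.52, 3.77 and 3.70 in the knockout lungs, a difference of 0.11 ± 0.092 (SE; limma, adjusted p = 0.476) with groups that overlapped. It was 0.067 without wild-type replicate 2, 0.074 without knockout replicate 1 and 0.17 without knockout replicate 2. NRF2 is regulated mainly through the stability of its protein, which arrays do not measure.

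Targets of NRF2 lay on both sides of 0. Akr1b8, an aldo-keto reductase that detoxifies lipid aldehydes, had the smallest p of the set. Its probe (mm9 chromosome 6, 34318338 to 34318397) read 4.78, 4.78, 4.72 and 4.95 in the wild-type and 5.33, 5.49, 5.35 and 5.92 in the knockout lungs, a difference of 0.72 ± 0.14 (SE; limma, adjusted p = 0.0627). Every knockout lung lay above every wild-type lung. Nqo1, the quinone reductase most often used as a readout of NRF2 (probe at mm9 chromosome 8, 109912440 to 109912499), read -0.22, -0.09, 0.03 and 0.11 in the wild-type and 0.32, 0.30, 0.53 and 0.65 in the knockout lungs. Here too the groups were apart, by 0.49 ± 0.11 (SE; limma, adjusted p = 0.0753).

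Hmox1 and G6pdx, further targets, lay on the other side. Hmox1, the inducible heme oxygenase, read 4.46, 4.97, 4.39 and 4.61 in the wild-type and 3.89, 4.46, 4.07 and 3.98 in the knockout lungs. The difference was -0.51 ± 0.17 (SE; limma, adjusted p = 0.131), and knockout replicate 2, the highest of its group, equalled wild-type replicate 1. A second Hmox1 probe gave -0.53. Hmox1 is also strongly expressed in macrophages, and the monocyte and interstitial macrophage markers averaged 2.34, 2.55, 2.32 and 2.23 in the wild-type and 1.46, 2.02, 1.61 and 1.41 in the knockout lungs. On both measures wild-type replicate 2 was the highest sample of its group and knockout replicate 2 of its group. Alveolar macrophage markers averaged 2.91, 2.89, 2.53 and 2.36 in the wild-type and 2.51, 2.33, 2.24 and 2.34 in the knockout lungs. These were lower in the knockout in 7 of 11 genes and higher in 4, and were highest in replicate 1 of each group. The part of either kind of cell in the Hmox1 difference was not tested. G6pdx, the first enzyme of the pentose phosphate pathway and a source of NADPH, read 4.998, 5.11, 5.05 and 4.85 in the wild-type and 4.75, 4.76, 4.77 and 4.64 in the knockout lungs. These groups were apart, with the knockout lower by 1.21-fold (log2 -0.27 ± 0.080 SE; limma, adjusted p = 0.106). The next enzyme of that pathway, Pgd, differed by only -0.03 and the esterase Esd by 0.25. Another, dim probe of Esd gave -0.76 where both bright probes gave 0.25.

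**Figure D2:**
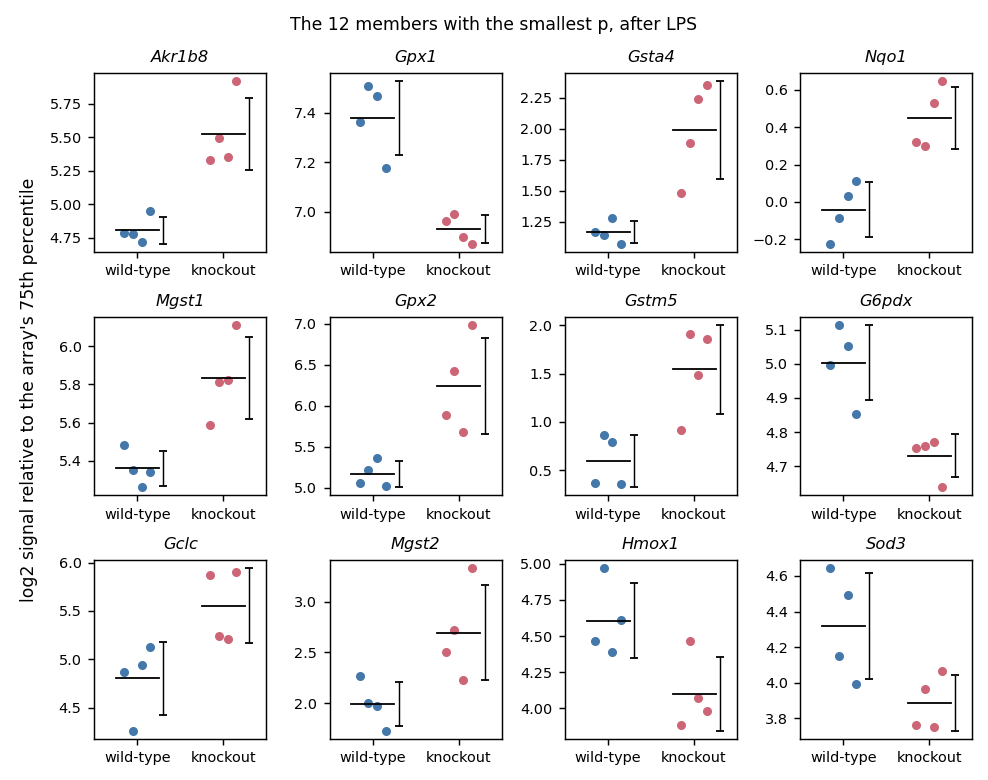
Log2 signal relative to the array's 75th percentile for the 12 genes of the set with the smallest p, 1 point per lung, with the group mean (line) and SD (bar, n = 4 per group). Akr1b8, Gpx1, Gsta4, Nqo1, Mgst1, Gpx2, Gstm5, G6pdx and Gclc have no overlap between groups, while Mgst2, Hmox1 and Sod3 do; each panel has its own axis.

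Of the 5 genes of glutathione supply and recycling, 4 had a higher mean in the knockout (median 0.22). Gclc, the catalytic subunit of the rate-limiting ligase, read 4.87, 4.26, 4.95 and 5.13 in the wild-type and 5.87, 5.24, 5.21 and 5.90 in the knockout lungs. The groups did not overlap, and the difference was 0.76 ± 0.24 (SE; limma, adjusted p = 0.123), or 1.69-fold. Its partner Gclm, the modifier subunit, read 0.03, -0.07, 0.01 and 0.03 in the wild-type and 0.05, 0.15, 0.12 and 0.42 in the knockout lungs. Those groups were apart as well, but by a narrow margin, and the difference of 0.19 ± 0.094 (SE; limma, adjusted p = 0.262) was 0.11 without knockout replicate 4. Gss, the synthetase of the second step, read 0.77, 0.74, 0.88 and 0.80 in the wild-type and 0.86, 0.95, 0.97 and 1.29 in the knockout lungs, a difference of 0.22 ± 0.10 (SE; limma, adjusted p = 0.240), again carried partly by knockout replicate 4 (0.13 without it).

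Gsr, the reductase that returns oxidised glutathione to its reduced form, differed by 0.46 with overlapping groups. Slc7a11, the cystine importer that feeds glutathione synthesis, was the only one of the 5 with a lower mean in the knockout. It read -0.14, 1.28, -0.03 and 0.63 in the wild-type and -0.67, 0.80, -0.38 and 0.16 in the knockout lungs. The spread within each group was wider than the difference of -0.45 ± 0.40 (SE; limma, adjusted p = 0.515). Both groups had the same order, replicate 2 above 4, 3 and 1, and same-numbered samples shared a slide column. Over the 18 alternative settings its adjusted p (limma) lay between 0.0644 and 0.826. Without wild-type replicate 2 the difference was -0.17, without knockout replicate 2 it was -0.73 and without knockout replicate 1 it was -0.24.

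Among the glutathione transferases, 17 of 20 had a higher mean in the knockout, with a median of 0.31. Only 4 of the 20, all higher, reached an unadjusted p under 0.05, a share below the 23.6% of all genes tested. Gsta4, the alpha-class enzyme that conjugates 4-hydroxynonenal, a product of lipid peroxidation (probe at mm9 chromosome 9, 78046172 to 78047344), read 1.16, 1.14, 1.28 and 1.07 in the wild-type and 1.48, 1.88, 2.24 and 2.35 in the knockout lungs. The wild-type lungs were close together and all 4 knockout lungs lay above them, by 0.82 ± 0.18 (SE; limma, adjusted p = 0.0735), or 1.77-fold. Gstm5, of the mu class, read 0.37, 0.86, 0.80 and 0.35 in the wild-type and 0.92, 1.91, 1.48 and 1.86 in the knockout lungs. Its groups were apart, though knockout replicate 1 stood just above the highest wild-type lung, and the difference was 0.95 ± 0.24 (SE; limma, adjusted p = 0.0823). Both of these enzymes lie in gene clusters with close relatives.

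The membrane-bound transferases, which act in the microsomal and outer mitochondrial membranes, included the other 2. Mgst1, which also reduces lipid peroxides, read 5.48, 5.35, 5.26 and 5.34 in the wild-type and 5.59, 5.81, 5.82 and 6.11 in the knockout lungs, a difference of 0.47 ± 0.12 (SE; limma, adjusted p = 0.0803). A second Mgst1 probe gave 0.54 ± 0.11 (SE). Mgst2, which can also make leukotriene C4, read 2.27, 2.001, 1.97 and 1.73 in the wild-type and 2.50, 2.72, 2.23 and 3.33 in the knockout lungs. Wild-type replicate 1 lay just above knockout replicate 3, so these groups touched, and the difference was 0.70 ± 0.23 (SE; limma, adjusted p = 0.130). Mgst3 differed by 0.10.

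Classes of transferase varied between lungs in their own ways, as the plot of transferases by sample shows. The mu-class genes Gstm1 to Gstm4 shared a pattern that did not follow genotype. Relative to each gene's own mean, the median over the 6 mu-class genes was 0.25 and 0.11 in wild-type replicates 1 and 3 but -0.29 and -0.28 in replicates 2 and 4. Among the knockout lungs it was -0.40 in replicate 1, -0.05 in replicate 2, 0.45 in replicate 3 and 0.16 in replicate 4. Gstm1 to Gstm4 differed by no more than 0.10 between genotypes, as read by the brightest probe of each, and the sign for each turned when single samples were left out. A dimmer Gstm3 probe gave 0.48 ± 0.22 (SE). These genes are near copies of each other, and their probes may read more than 1 of them: the brighter Gstm1 probe is annotated on chromosome 5 (mm9) and the other on chromosome 3, where the mu-class cluster lies, with differences of 0.10 and -0.04.

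The omega class rested largely on 1 lung. Gsto1, a dehydroascorbate reductase and thiol transferase named here after its values were seen, read 5.85, 5.57, 5.70 and 4.98 in the wild-type and 5.74, 6.597, 5.24 and 8.00 in the knockout lungs. Knockout replicate 4 was far above all others, and without it the difference dropped from 0.87 ± 0.55 (SE) to 0.34. Gsto2 stood at 0.59 with and 0.15 without that lung. Gsta1 and Gsta2, near-identical alpha-class genes whose probes may cross-read, were also highest there and differed by 0.58 and 0.62, or 0.24 and 0.31 without it. Of the remaining transferases, Gsta3 (0.39), Gstm6 (0.39) and Gstt3 (0.22) had higher means with overlapping groups. Gsta3 stood at 0.20 without wild-type replicate 2 and 0.22 without knockout replicate 3, Gstm6 ranged from 0.11 (without wild-type replicate 2) to 0.82 (without knockout replicate 1), and Gstt3 from 0.15 to 0.34. Gstt1, Gstt2, Gstk1 and Gstp1 differed by between -0.09 and 0.02.

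**Figure D3:**
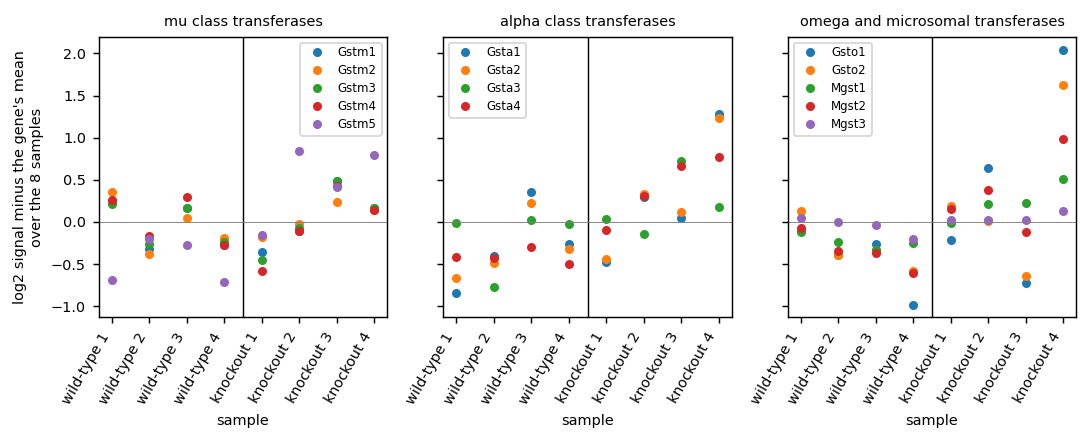
Log2 signal of each transferase minus its own mean over the 8 samples (vertical axis), by sample (horizontal axis), for Gstm1 to Gstm5, the alpha class, and the omega and microsomal classes; the line divides wild-type from knockout lungs. Gstm1 to Gstm4 vary together across lungs of both genotypes, and Gsto1, Gsto2, Gsta1 and Gsta2 peak in knockout replicate 4; Gstm6 is left out of the drawing.

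Club cells of the airway lining are known for their high content of alpha, mu and omega transferases, and their markers differed between these lungs. The mean of the 13 measured club cell markers was 3.42, 4.06, 4.87 and 2.39 in the wild-type and 4.54, 5.60, 3.46 and 5.81 in the knockout lungs. Its highest sample, knockout replicate 4, was also the highest for Gsto1, Gsta1, Gsta2, Gsta4, Mgst1 and Mgst2, whereas knockout replicate 3, low in club cell markers, was the highest for Gsta3, Gstm1, Gstm3 and Gstm4. Ciliated cell markers averaged 0.24 to 0.75 in the wild-type and 0.69 to 1.49 in the knockout lungs, and heart muscle markers -1.07 to 3.73 and 0.80 to 3.96, with knockout replicates 2 and 4 high in both. Their part in the transferase differences was not tested. Without knockout replicate 4, the 55 genes had a median difference of 0.066, 36 were higher, and 13 reached an unadjusted p under 0.05, against 18.4% of all genes.

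**Figure D4:**
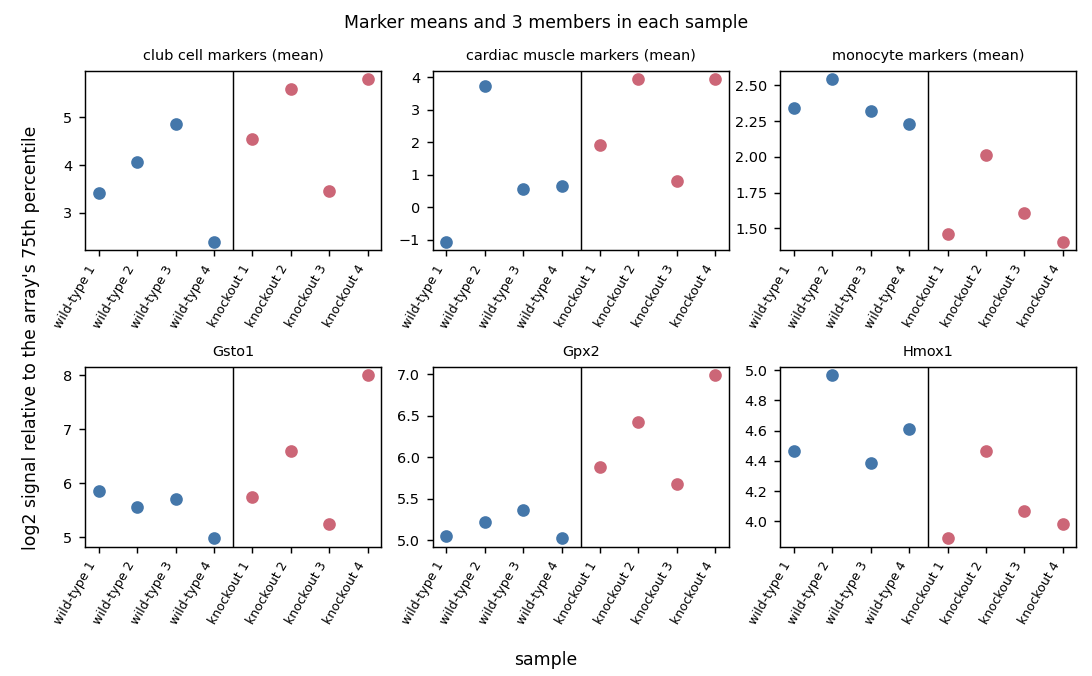
Mean log2 signal of club cell, heart muscle and monocyte markers (upper row) and log2 signal of Gsto1, Gpx2 and Hmox1 (lower row) in each lung, relative to the array's 75th percentile, with wild-type samples to the left of the line and knockout samples to the right. Gsto1 and Gpx2 are highest in knockout replicate 4, where club cell markers are also highest. Ciliated cell, smooth muscle and fat markers, not drawn, are highest there too. Monocyte markers and Hmox1 are highest in wild-type replicate 2, whereas alveolar macrophage markers, not drawn, are highest in wild-type replicate 1.

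Of the peroxidases, 8 of 13 had a higher mean in the knockout, with a median of 0.015, and the 2 with the smallest p pointed opposite ways. Gpx1, the ubiquitous cytosolic glutathione peroxidase (probe at mm9 chromosome 9, 108242276 to 108242335), read 7.36, 7.51, 7.47 and 7.18 in the wild-type and 6.96, 6.99, 6.90 and 6.87 in the knockout lungs. The knockout lungs lay within a narrow band below every wild-type lung, by 1.36-fold (log2 -0.45 ± 0.090 SE; limma, adjusted p = 0.0627). Gpx2, the epithelial glutathione peroxidase and an NRF2 target (probe at mm9 chromosome 12, 77893402 to 77893461), read 5.05, 5.22, 5.37 and 5.02 in the wild-type and 5.88, 6.43, 5.68 and 6.99 in the knockout lungs. Its groups were apart by 1.08 ± 0.27 (SE; limma, adjusted p = 0.0820), or 2.11-fold, the largest difference among the 55 genes. The knockout lungs were spread more widely than the wild-type lungs, with SDs of 0.59 and 0.16. Their order was that of the club cell markers, replicate 4 above 2, 1 and 3. Within the wild-type group the 2 orders also matched, replicate 3 above 2, 1 and 4. Across groups they did not: wild-type replicate 3 had a club cell mean of 4.87 and knockout replicate 3 of 3.46, with Gpx2 at 5.37 and 5.68. Ciliated cell markers averaged 0.91, 1.04, 0.69 and 1.49 in the knockout lungs and fat markers 0.78, 2.74, -3.03 and 2.90. Both thus had the knockout order of Gpx2 as well, but neither had its order in the wild-type lungs. The part of club cells or of these other cells in the Gpx2 difference was not tested.

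Secreted Gpx3 differed by -0.32 and Gpx4, which repairs lipid hydroperoxides in membranes, by -0.11, while Gpx7 and Gpx8 of the endoplasmic reticulum differed by under 0.10 in size. Gpx3 was at -0.15 without knockout replicate 4 and -0.52 without knockout replicate 3, and Gpx4 at -0.065 without knockout replicate 2 and -0.18 without knockout replicate 3. Of the peroxiredoxins, Prdx6, the bifunctional enzyme abundant in alveolar type 2 and club cells, was named after its values were seen. It read 7.92, 7.56, 7.78 and 7.87 in the wild-type and 8.21, 7.85, 8.33 and 8.05 in the knockout lungs, a difference of 0.33 ± 0.13 (SE; limma, adjusted p = 0.177). Only knockout replicate 2 fell inside the wild-type range, and 2 further bright probes gave 0.37 and 0.39. Prdx1 to Prdx4 differed by between -0.12 and 0.15, and Prdx5 by -0.25 with a wide spread (-0.087 without knockout replicate 3 and -0.13 without wild-type replicate 2). Catalase, which removes hydrogen peroxide in peroxisomes, differed by 0.05 with 1 probe and by -0.14 with the other.

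The 3 superoxide dismutases, which turn superoxide into hydrogen peroxide, lay on both sides of 0. Sod3, the extracellular enzyme bound to the matrix of lung and vessels, read 4.64, 4.15, 4.49 and 3.99 in the wild-type and 3.76, 3.96, 3.75 and 4.07 in the knockout lungs, a difference of -0.43 ± 0.16 (SE; limma, adjusted p = 0.159). Wild-type replicate 4 lay inside the knockout range. Sod1, the cytosolic enzyme, read 7.12, 6.92, 6.99 and 7.12 in the wild-type and 7.32, 7.12, 7.23 and 7.24 in the knockout lungs, a difference of 0.19 ± 0.081 (SE; limma, adjusted p = 0.206) with groups that just touched. Sod2, the mitochondrial enzyme that inflammatory signals induce, differed by 0.09 with an interval of -0.17 to 0.35.

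In the thioredoxin system, 3 of 6 genes were higher and none reached an unadjusted p under 0.05. Srxn1, the sulfiredoxin that repairs over-oxidised peroxiredoxins, read 3.87, 4.05, 3.94 and 4.12 in the wild-type and 4.07, 4.11, 4.29 and 4.54 in the knockout lungs. The groups overlapped, and the difference was 0.26 ± 0.12 (SE; limma, adjusted p = 0.236), or 0.16 without knockout replicate 4. Txn2, the mitochondrial thioredoxin, read 4.94, 5.04, 4.999 and 5.05 in the wild-type and 4.94, 4.86, 4.51 and 4.87 in the knockout lungs. All knockout values lay below all wild-type values, though the closest were 4.939 and 4.944, and the difference of -0.21 ± 0.10 (SE; limma, adjusted p = 0.254) was -0.12 without knockout replicate 3. The other 2 probes of Txn2 gave -0.13 and 0.16.

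Txnrd1, the cytosolic thioredoxin reductase and a standard NRF2 target, read 4.81, 5.33, 4.81 and 5.13 in the wild-type and 4.80, 4.97, 4.93 and 5.19 in the knockout lungs. The groups covered nearly the same range, and the difference of -0.05 ± 0.15 (SE; limma, adjusted p = 0.865) had an interval of -0.38 to 0.29. Its mitochondrial counterpart Txnrd2 differed by -0.09, cytosolic thioredoxin Txn1 by 0.10, and Txnip, the protein that binds and inhibits thioredoxin, by 0.17.

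**Figure D5:**
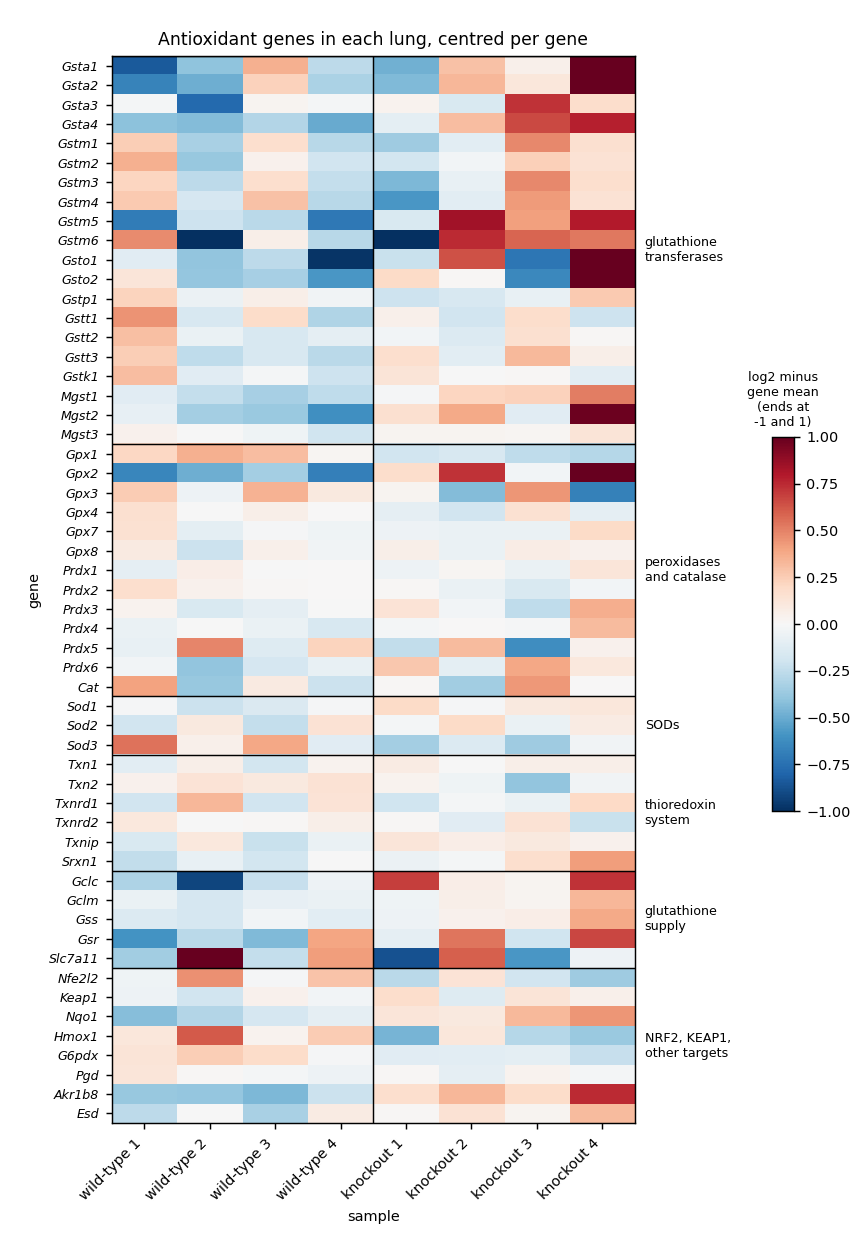
Log2 signal of each of the 55 genes minus its own mean over the 8 samples (colour, red above and blue below the mean), with genes by group in rows and lungs in columns. The Gpx1 and Akr1b8 rows split by genotype, the Gstm1 to Gstm4 rows vary across lungs of both genotypes, and Slc7a11 is highest in wild-type replicate 2.

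Set by their promoters, the 11 genes with the antioxidant response core had a median difference of 0.19. Of the 11, 4 (Gstm5, Mgst1, Sod1 and G6pdx) reached an unadjusted p under 0.05. The 37 genes whose promoters lacked those letters had a median of 0.095, and 5 of the 37 reached it. The share over all genes tested was 23.6%, and whether the core bears on the difference was not tested. The other 5 of the 14 genes with an unadjusted p under 0.05 (Gsta4, Prdx6, Sod3, Gclc and Hmox1) are among the 7 for which no promoter was taken. The counts by promoter leave them out. The 4 with the core did not share a direction, since G6pdx was lower in the knockout. Nqo1 and Akr1b8 were among the genes without the core in this window.

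A further list held 52 redox and detoxification genes outside the set, of which 49 were tested. Of these, 28 (57.1%) were higher in the knockout, against 45.7% of all genes tested, and the median difference was 0.094. An unadjusted p under 0.05 was reached by 13 (26.5%, 10 higher and 3 lower), against 23.6% of all genes. None passed after adjustment. The groups were apart in 9 (18.4%), against 15.3% of all genes. Gstz1, a zeta-class transferase that also acts in tyrosine breakdown, differed by 0.59 ± 0.11 (SE; limma, adjusted p = 0.0624), and the stress-induced Sesn1 by 0.40 ± 0.080 (SE; limma, adjusted p = 0.0627). The carbonyl reductase Cbr3 differed by 0.54, and the NADPH-forming enzymes Me1 and Idh1 by 0.50 and 0.59, each with groups apart. Osgin1, induced by oxidative stress, differed by -0.60 with groups that overlapped.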

How the data were processed

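Whole-lung total RNA of 8 mice, 4 wild-type and 4 knockout per the labels, was measured on single-colour Agilent arrays. Per the submitters' processing notes and the file headers, Agilent Feature Extraction 10.7.1.1 quantified the scans, and the deposited scanner files give an intensity per spot, background-subtracted and detrended; probe coordinates are on mm9. The authors also deposited a table of log2 values, whose columns share 1 distribution with a median of 5.63 and correlated with log2 processed signal at 0.999 or more over probes; no source used here states its normalization.

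Control spots and outlier spots were left out, spots of a probe averaged as log2 values, and the array's 75th percentile over 55681 probes subtracted. Probes were kept if at least 3 of a group's 4 arrays read them well above background, and the brightest probe stood for a gene name. No spot was saturated. The genotypes were compared in limma 3.58.1 (R 4.3.3; lmFit, eBayes, two-sided tests, Benjamini-Hochberg adjustment over every gene tested, threshold 0.05); the fit was also tested on simulated data. Array quality was compared by exact permutation. Precision is limited by there being 4 arrays per group. Gene symbols are those of the array files, checked against RefSeq names. The members and lists were chosen with earlier results of these data known. Values in all samples are given for the 12 members with the smallest p and the 2 with the smallest p in each of 6 groups. They are also given for Nfe2l2, Keap1, Nqo1, Hmox1, Gclc, Gclm, Txnrd1, Srxn1 and Slc7a11. For Ggps1 and up to 6 genes of the further list, only the difference between groups is given. Others named with values in all samples were chosen after their values were seen. The replicate numbers were checked for pairing: same-numbered samples deviated together with correlations of 0.13, 0.47, 0.0074 and -0.29, so they were not treated as pairs. Alternatives were normexp background correction, quantile normalization, median centring, other filters, the deposited value table, a replicate block, other probe choices, an intensity trend, array weights and leaving out each sample. Slide as a block was not run, because there was 1 slide. Replicate number equals slide column in both groups, so the replicate block is also a block on column.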

Additional observations from a re-analysis of the deposited data

Results flagged for a closer look

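In 6 of the 110 groups of 4 values read here, 1 sample lay far from the other 3 relative to the range of the 4. The test used flags about 1 group in 20 by chance, which is close to the share flagged. Gsta3, an alpha-class transferase, read 5.24 in wild-type replicate 2 and 5.99 to 6.04 in the other wild-type lungs. Gstm6, a mu-class transferase, read -2.16 in knockout replicate 1 and -0.57 to -0.35 in the other knockout lungs. The remaining 4 were knockout replicate 4. There Mgst3 read 1.92 against 1.81 to 1.82, Gpx7 read -1.86 against -2.12 to -2.10, and Prdx4 read 1.99 against 1.65 to 1.68 in the other knockout lungs. G6pdx read 4.64 there, below 4.75 to 4.77. This is the lung with the highest club cell, ciliated cell, smooth muscle and fat markers and the lowest alveolar type 1 markers. Whether these bear on the flagged values was not tested.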

How the results depend on the processing

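Without an adjusted call in the set, 0 of 55 genes passed with quantile normalization, median centring, the deposited value table, a filter on all 8 arrays, the mean of a gene's probes, the replicate block and each sample left out (0 to 0). Array weights called 1 (Akr1b8), where 339 of all 24442 genes were called. Normexp and an intensity trend called 2 each (Gpx1 and Akr1b8), where 512 and 417 of the 24442 were called. No filter on dim probes called 4 of the 55 (Gsta4, Gpx1, Nqo1 and Akr1b8). There 3510 of 36095 gene names were called, so the set's share was no larger than that of all genes. Over all genes the count of 15 of 24442 became 126 of 21980 with the filter on all 8 arrays. It was 6 with the mean of probes, 43 with the replicate block, 17 with median centring and 1 to 19 with a sample left out. The split of 8 higher and 7 lower became 6 and 11 with median centring, 160 and 257 with the trend, 2724 and 786 without a filter and 10 and 33 with the replicate block. At an unadjusted p under 0.05 the set's count of 14 was 20 with the replicate block, where all genes stood at 25.1%, and 12 to 16 with a sample left out, when the median difference was 0.066 to 0.14 and the difference in percent of spots above background -4.52 to -3.28. Of 1013 differences recomputed for the 55 genes, 53 changed sign. With array weights Gstm1 was -0.023, Gstm3 -0.066 and Cat -0.0038. With median centring Gstt2 was -0.050, Gstk1 -0.040, Gpx7 -0.054, Gpx8 -0.00012, Prdx1 -0.041 and Cat -0.0043. With normexp Gstk1 was -0.0012 and Prdx1 -0.020. With quantile normalization Gpx7 was -0.030, Txnrd1 0.0061 and Pgd 0.022, and with the deposited table -0.030, 0.0066 and 0.023. With the mean of probes Cat was -0.043 and Esd -0.087. With another probe Gstm1 was -0.044, Gstm4 0.050, Cat -0.14, Txn2 0.16 and Esd -0.76. With a sample left out Gstm1 ranged from -0.050 to 0.23, Gstm2 from -0.027 to 0.22, Gstm3 from -0.091 to 0.22, Gstm4 from -0.21 to 0.13, Gstt1 from -0.20 to 0.051, Gstt2 from -0.047 to 0.11, Gstk1 from -0.051 to 0.12, Gpx7 from -0.061 to 0.051, Gpx8 from -0.0073 to 0.095, Prdx1 from -0.024 to 0.039, Cat from -0.084 to 0.19, Txnrd1 from -0.12 to 0.056 and Pgd from -0.054 to 0.0038. The cause was not tested for any of these.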
